A study of Mus musculus with 52 samples.

Results

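Chromatin accessibility at gene promoters was compared between 2 conditional mouse embryonic stem cell (mESC) lines, Kdm2a/b-CXXCfl/fl and Kdm2b-CXXCfl/fl, in cells that had not been treated. The comparison rests on 4 untreated Kdm2a/b-CXXC and 3 untreated Kdm2b-CXXC libraries, 7 of the 52 samples of the series, of which 26 are ATAC-seq libraries. ATAC-seq uses the Tn5 transposase to tag DNA that is accessible in nuclei. In these libraries the mESCs were mixed with Drosophila SG4 cells as a spike-in. All libraries of both lines with these labels were taken, and their promoter values were joined on the RefSeq identifier. This gave 20633 promoter intervals of 400 bp, of which 19900 are autosomal and 16190 had enough reads to be tested, so that 3710 autosomal promoters were not. In untreated Kdm2b-CXXC cells the exons for the ZF-CxxC domain of KDM2B are flanked by loxP sites but still present. Kdm2a/b-CXXC cells carry the same Kdm2b allele and, in addition, loxP sites around exon 14 of Kdm2a. According to the study's methods they were made from Kdm2b-CXXC cells by genome editing and isolation of clones. How many clones went into these libraries is not given in the sources used here. Both lines carry a tamoxifen-inducible CRE recombinase, which had not been activated in the libraries compared here. The same lines after tamoxifen (800 nM for 96 h; 4 and 3 libraries) served as a second set of libraries for the same contrast. In those cells the ZF-CxxC domain has been removed from both proteins in the first line and from KDM2B alone in the second.

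KDM2A and KDM2B are histone demethylases whose ZF-CxxC domain binds unmethylated CpG dinucleotides, which brings them to the CpG islands found at most mammalian promoters. KDM2B also belongs to a variant Polycomb repressive complex 1 (PRC1). Lines with floxed alleles are normally treated as equivalent before recombination, and a difference between 2 untreated lines is a property of the lines or of their experiments. Promoter accessibility in bulk libraries is a number of Tn5 insertions per interval, and it scales both with how open each copy of the DNA is and with how many copies a cell holds. The input DNA libraries are not analysed here, so these cannot be told apart. Line and experiment cannot be told apart either, since each line has its own table and its own calibration. Each library was therefore scaled to its own promoter total, which cancels the spike-in factor, and levels are given as RPM, promoter reads scaled to a promoter total of 1e6 per library. Log2 differences are Kdm2a/b-CXXC minus Kdm2b-CXXC, on log2(RPM + 1), and calls needed an adjusted p under 0.05 together with a change of more than 1.4 times. Every direction is relative to the promoter total. With the spike-in calibrated values set side by side, the median of all promoters was -0.54 and 6139 promoters were called, 6136 of them lower in Kdm2a/b-CXXC cells.

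The Kdm2a/b-CXXC libraries were the shallower, with 1488370 to 1670712 promoter reads against 2409441 to 2565444. Promoters of 11 mESC markers summed to between 641 and 736 RPM in the Kdm2a/b-CXXC libraries and between 691 and 713 RPM in the Kdm2b-CXXC libraries, and 0 of the 10 tested were called. Promoters of fibroblast markers, which would mark feeder cells, summed to between 145 and 148 RPM against between 120 and 131 RPM. The 6 tested members had a median log2 difference of 0.26, and 0 were called. Primitive endoderm markers summed to between 203 and 237 RPM against between 202 and 210 RPM. No promoter found for the 3 lists had a mean of 0 in either line. The median olfactory receptor promoter, a closed reference in mESCs, held 2.61 RPM in Kdm2a/b-CXXC and 2.31 RPM in Kdm2b-CXXC cells. The part of these differences in the results was not tested.

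Of the 16190 promoters tested, 51 were called (0.315%), 37 higher in Kdm2a/b-CXXC cells (0.229%) and 14 lower (0.0865%). The median log2 difference over all tested promoters was 0.00, and the median size of a difference was 0.13, against a median standard error of 0.15. The called promoters had sizes between 0.49 and 1.64 on the log2 scale. In 50 of the 51 no library of one line lay within the range of the other, which was so for 9.81% of all promoters tested (5.45% higher and 4.36% lower). Their median level was 53.1 RPM, close to the 55.3 RPM of all tested promoters, and 70.6% were CpG-rich against 67.6%. The split by direction moved with the scaling, to 23 higher and 17 lower with TMM factors, 25 and 17 with median-of-ratios factors, and 22 and 14 after centring in bins of GC content. The count depended on the Kdm2b-CXXC libraries, since 12, 16 and 8 promoters were called without replicate 1, 2 and 3 of that line. With each chromosome's median difference removed, 8 promoters were called (0.0494%), 7 higher (0.0432%) and 1 lower (0.00618%), so that 43 calls were lost and 0 gained. That count was 5 without Kdm2a/b-CXXC replicate 2, and 5, 1 and 2 without Kdm2b-CXXC replicate 1, 2 and 3.

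The 8 promoters called in both fits were Cbx7, Sun2, Ldb2, Grm3, Fuz, Nucb1 and Cdk13, which were higher in Kdm2a/b-CXXC cells, and Ube2f, which was lower. RefSeq promoter sequences (GRCm38.p6, from 250 bases before to 50 after the start site) were found for 7 of them. The promoter with the smallest p, the only lower one, and one outside the CpG-rich class are shown here because the ZF-CxxC domain reads CpG. Capitals mark each CpG. The Cbx7 sequence lies at chr15:79932597-79932896 on the minus strand, the Ube2f sequence at chr1:91250054-91250353 on the plus strand and the Grm3 sequence at chr5:9725303-9725602 on the minus strand.
Cbx7: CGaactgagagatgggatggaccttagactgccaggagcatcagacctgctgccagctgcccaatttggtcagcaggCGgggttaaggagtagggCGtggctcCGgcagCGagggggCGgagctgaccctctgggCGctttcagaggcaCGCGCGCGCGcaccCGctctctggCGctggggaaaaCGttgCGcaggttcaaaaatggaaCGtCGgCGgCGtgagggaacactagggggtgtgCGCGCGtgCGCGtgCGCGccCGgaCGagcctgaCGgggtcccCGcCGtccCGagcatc
Ube2f: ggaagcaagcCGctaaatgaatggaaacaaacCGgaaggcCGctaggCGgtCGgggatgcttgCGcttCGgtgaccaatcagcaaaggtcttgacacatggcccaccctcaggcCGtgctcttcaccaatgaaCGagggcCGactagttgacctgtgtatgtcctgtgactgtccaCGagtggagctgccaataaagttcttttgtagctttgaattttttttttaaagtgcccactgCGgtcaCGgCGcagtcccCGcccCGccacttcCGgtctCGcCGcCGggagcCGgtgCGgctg
Grm3: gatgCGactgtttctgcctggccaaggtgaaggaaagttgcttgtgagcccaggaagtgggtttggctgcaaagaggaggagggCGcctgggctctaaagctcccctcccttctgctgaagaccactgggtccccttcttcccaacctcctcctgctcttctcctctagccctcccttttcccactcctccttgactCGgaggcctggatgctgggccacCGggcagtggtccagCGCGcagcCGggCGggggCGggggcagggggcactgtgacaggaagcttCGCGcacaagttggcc
The Cbx7 promoter holds 33 CpG, the Ube2f promoter 22 and the Grm3 promoter 11. Of the 32851 mouse promoters of the same length in that table, 8.56% hold 33 or more, 23.1% hold 22 or more and 41.4% hold 11 or more, with a median of 7. The 8 called promoters thus covered both classes, 6 CpG-rich and 2 not, where CpG-rich means that GC made up 0.5 or more of the bases of the 400 bp interval and that CpG occurred at 0.6 or more of the rate its base composition predicts.

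Cbx7 encodes a chromodomain subunit of canonical PRC1 that reads H3K27me3. Its interval (chr15:79932447-79932846) held 88.1, 94.1 and 75.5 RPM in the Kdm2b-CXXC libraries and 138, 157, 139 and 153 RPM in the Kdm2a/b-CXXC libraries. The ranges were far apart, and the mean of 146 ± 9.57 (SD, n = 4) stood against 85.9 ± 9.48 (SD, n = 3), a fold of 1.70 on the log2(RPM + 1) scale. The log2 difference was 0.77 ± 0.10 (SE; limma, adjusted p = 1.18e-06), and it was 0.76 with chromosome medians removed (adjusted p = 1.25e-06). With medians removed, the call held without any 1 of the 7 libraries. In untreated Kdm2a-CXXC and Kdm2a/b-JmjC cells, the other lines of the series, the same interval held 70.4 and 80.8 RPM on average. In the tamoxifen-treated libraries Cbx7 was called again, with 95.5, 106 and 86.4 RPM in Kdm2b-CXXC and 144, 143, 140 and 152 RPM in Kdm2a/b-CXXC cells (log2 difference 0.59 ± 0.10, adjusted p = 0.000147).

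Sun2 encodes a protein of the inner nuclear membrane that links the nucleus to the cytoskeleton. The 2 intervals lie within 191 kb, and that of Sun2 (chr15:79742337-79742736) held 46.8, 36.9 and 41.9 RPM against 63.2, 72.6, 76.6 and 71.6 RPM. Here too the lines did not overlap, and the log2 difference was 0.75 ± 0.15 (adjusted p = 0.0039, and 0.012 with chromosome medians removed). With medians removed the call was lost without Kdm2b-CXXC replicate 2 or 3. After tamoxifen the difference was 0.63 ± 0.14 (adjusted p = 0.0077). The interval overlaps that of Gm16576, so the 2 share reads and are not separate measurements.

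Ldb2, which encodes a cofactor that binds LIM domains, had the largest difference of the 8. Its interval (chr5:44799547-44799946) held 5.07, 8.52 and 7.89 RPM in Kdm2b-CXXC and 18.1, 19.7, 23.9 and 20.6 RPM in Kdm2a/b-CXXC libraries. The levels were low in both lines but did not overlap, and the log2 difference was 1.42 ± 0.29 (adjusted p = 0.0053, and 0.019 with chromosome medians removed). After tamoxifen the ranges of the lines overlapped, with 7.41, 6.96 and 5.42 RPM against 4.98, 7.59, 4.56 and 10.3 RPM. The log2 difference there was 0.00 ± 0.40 (adjusted p = 0.998). Grm3, a metabotropic glutamate receptor gene, was also called in untreated cells alone. It held 10.1, 14.6 and 7.47 RPM against 26.9, 22.9, 23.3 and 22.5 RPM in untreated cells (chr5:9725153-9725552). These ranges did not overlap, and the log2 difference was 1.13 ± 0.26 (adjusted p = 0.016, and 0.046 with chromosome medians removed). After tamoxifen Grm3 held 19.2, 11.9 and 24.8 RPM against 17.1, 16.2, 9.77 and 19.9 RPM, which overlapped (log2 difference -0.21 ± 0.26, adjusted p = 0.87). The change of the line difference with tamoxifen was -1.43 for Ldb2 and -1.34 for Grm3, with unadjusted p of 0.0031 and 0.00049 and adjusted p over 0.6 for both among 17823 promoters, so that neither interaction passed the test. With medians removed, the Ldb2 call was lost without Kdm2a/b-CXXC replicate 3 or any 1 Kdm2b-CXXC library, and the Grm3 call without any 1 of the 7 libraries.

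Ube2f encodes an enzyme that conjugates the ubiquitin-like protein NEDD8. Its interval (chr1:91250119-91250518) held 57.3, 71.0 and 60.6 RPM in Kdm2b-CXXC and 39.0, 34.4, 49.1 and 31.2 RPM in Kdm2a/b-CXXC libraries. All 4 lay below all 3, and the log2 difference was -0.71 ± 0.16 (adjusted p = 0.016, and 0.046 with chromosome medians removed). With medians removed the call was lost without any 1 library other than Kdm2a/b-CXXC replicate 3. Both lines lay well below the other untreated lines, which held 121 RPM (Kdm2a-CXXC) and 129 RPM (Kdm2a/b-JmjC) on average. After tamoxifen the difference was -0.48 ± 0.15 (adjusted p = 0.12) and the ranges overlapped.

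Fuz and Nucb1 lie on chromosome 7. Fuz encodes an effector of planar cell polarity needed for cilia, and its interval (chr7:44895879-44896278) held 83.8, 89.3 and 86.3 RPM against 152, 132, 120 and 121 RPM. Nucb1 encodes a calcium-binding protein of the Golgi apparatus, and its interval (chr7:45510209-45510608) held 65.5, 70.2 and 87.2 RPM against 120, 120, 102 and 117 RPM. Neither pair of ranges overlapped. The log2 differences were 0.59 ± 0.11 for Fuz and 0.63 ± 0.12 for Nucb1 (adjusted p = 0.0023 and 0.0025). With the median of chromosome 7 removed they were 0.51 and 0.55 (both adjusted p = 0.026). That median was 0.09, whereas both promoters lie in a part of the chromosome, described below, with a median difference of 0.27. With medians removed, the Fuz call was lost without Kdm2a/b-CXXC replicate 1 or 2 or any 1 Kdm2b-CXXC library, and the Nucb1 call without Kdm2a/b-CXXC replicate 1 or 2 or Kdm2b-CXXC replicate 1 or 2. Cdk13, a kinase that acts with cyclin K on RNA polymerase II, held 104, 82.4 and 84.3 RPM against 130, 113, 139 and 129 RPM (chr13:17804898-17805297). The log2 difference was 0.50 ± 0.11 (adjusted p = 0.0091, and 0.035 with chromosome medians removed), and with medians removed the call was lost without any 1 library other than Kdm2a/b-CXXC replicate 2 or Kdm2b-CXXC replicate 1. After tamoxifen the log2 differences were 0.35 for Fuz, 0.30 for Nucb1 and 0.34 for Cdk13 (adjusted p = 0.104, 0.295 and 0.147), and none of these 3 was called. Yae1d1, the other promoter called on chromosome 13, lies at 17993152 and also had a log2 difference of 0.50 ± 0.12 (adjusted p = 0.0237), against 0.61 after tamoxifen (adjusted p = 0.000686).

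The 10 promoters with the smallest p after removal of chromosome medians also held Npcd and 2410002F23Rik, whose differences stayed under the fold of 1.4 in that fit. Npcd (chr15:79834134-79834533) held 91.2, 94.5 and 98.8 RPM against 120, 131, 142 and 135 RPM (log2 difference with medians removed 0.47, adjusted p = 0.043). 2410002F23Rik (chr7:44246522-44246921) held 108, 90.1 and 93.4 RPM against 124, 147, 144 and 150 RPM (log2 difference with medians removed 0.46, adjusted p = 0.046). Of the 10, 3 lie within 191 kb of each other on chromosome 15 and 3 on chromosome 7.

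**Figure D1:**
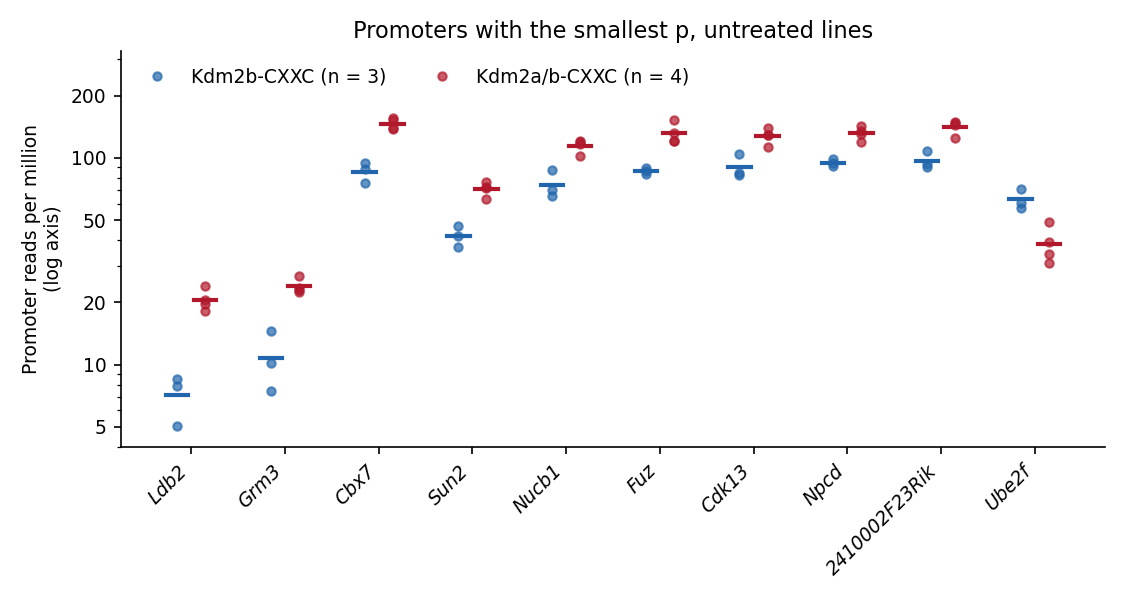
Promoter level in RPM (log axis) in each untreated library at the 10 promoters with the smallest p after removal of chromosome medians, ordered by the difference. Points are libraries and bars are means (3 Kdm2b-CXXC, 4 Kdm2a/b-CXXC). The lines do not overlap at any of the 10, and Ube2f alone is lower in Kdm2a/b-CXXC cells.

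These lines were compared on the view that their chromosomes look alike, and 16 of 19 autosomes had medians within 0.03 of each other on the log2 scale. The other 3 did not. The median of chromosome 6 was 0.12 higher in Kdm2a/b-CXXC cells, that of chromosome 7 was 0.09 higher and that of chromosome 8 was 0.11 lower. Relative to the mean of the 7 libraries, the chromosome 6 median lay between 0.04 and 0.07 in the Kdm2a/b-CXXC libraries and between -0.07 and -0.06 in the Kdm2b-CXXC libraries. On chromosome 7 the ranges were 0.04 to 0.05 against -0.05 to -0.03, and on chromosome 8 they were -0.06 to -0.01 against 0.05 to 0.09. On each of the 3 all libraries of one line lay beyond all of the other. In an exact two-sided permutation test over the 7 libraries each gave p = 0.029, the smallest that 35 splits allow, and an adjusted p of 0.090 over 19 autosomes, so that none passed the correction. Chromosomes 2, 10 and 17 gave the same p with differences of 0.01, 0.02 and -0.03. The promoters of chromosome X, not tested, had a median difference of -0.02. After tamoxifen the differences were 0.13, 0.08 and -0.07 on chromosomes 6, 7 and 8, and the libraries were again apart on each.

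**Figure D2:**
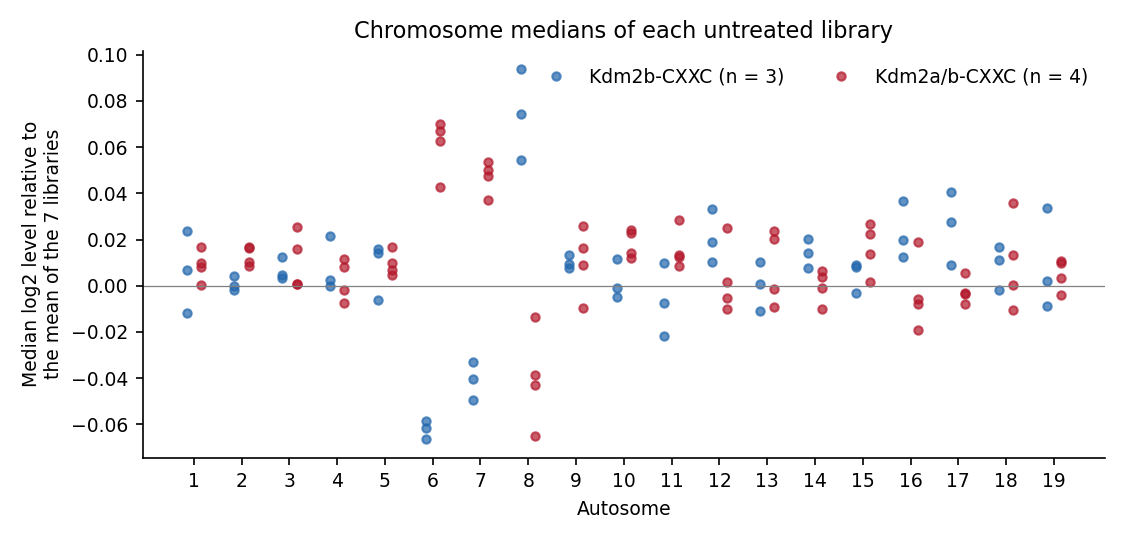
Median log2 level of the tested promoters on each autosome in each untreated library, relative to the mean of the 7 libraries. Points are libraries (3 Kdm2b-CXXC, 4 Kdm2a/b-CXXC). Chromosomes 6 and 7 are higher and chromosome 8 is lower in Kdm2a/b-CXXC cells, while the others lie within 0.03 of each other by line means.

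Along chromosomes 6 and 7 the difference came in stretches, not evenly. Stretches were sought in the untreated libraries as runs of promoters whose running median over 25 neighbours passed 0.15, or over 9 neighbours passed 0.25. Their values in untreated cells are therefore a description of what chose them, and the treated libraries were not used. In all 990 promoters fell in a stretch, 6.11% of those tested, and 29 of the 51 called promoters (56.9%) were among them. On chromosome 6 the 288 promoters from Crbn at 106.8 Mb to Ldhb at 142.5 Mb had a median log2 difference of 0.31, a fold of 1.24, and 269 of them were higher in Kdm2a/b-CXXC cells. Their library medians lay between 0.12 and 0.14 in the Kdm2a/b-CXXC libraries and between -0.19 and -0.15 in the Kdm2b-CXXC libraries. After tamoxifen the median over the 283 promoters tested was 0.32, with 254 higher, and the libraries were apart. By order along the chromosome the first 200 promoters had a difference of -0.03, the next 200 of 0.11, the next 100 of 0.00, the next 300 of 0.29 and the last 48 of -0.01. The same 5 values after tamoxifen were 0.01, 0.10, 0.00, 0.29 and 0.04. These boundaries were placed after the values were seen.

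On chromosome 7 the stretch ran over 374 promoters from Rab4b at 27.18 Mb to A330076H08Rik at 61.98 Mb. Its median log2 difference was 0.27, a fold of 1.21, with 349 promoters higher, and library medians lay between 0.125 and 0.134 against between -0.163 and -0.143. After tamoxifen the median was 0.30, with 337 of 372 higher. By order along the chromosome the first 240 promoters had a difference of 0.00, the next 360 of 0.28 and the last 698 of 0.02, and after tamoxifen of 0.00, 0.29 and 0.02. On both chromosomes CpG-rich promoters and the others had medians of 0.30 and 0.34 on chromosome 6 and of 0.26 and 0.29 on chromosome 7.

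**Figure D3:**
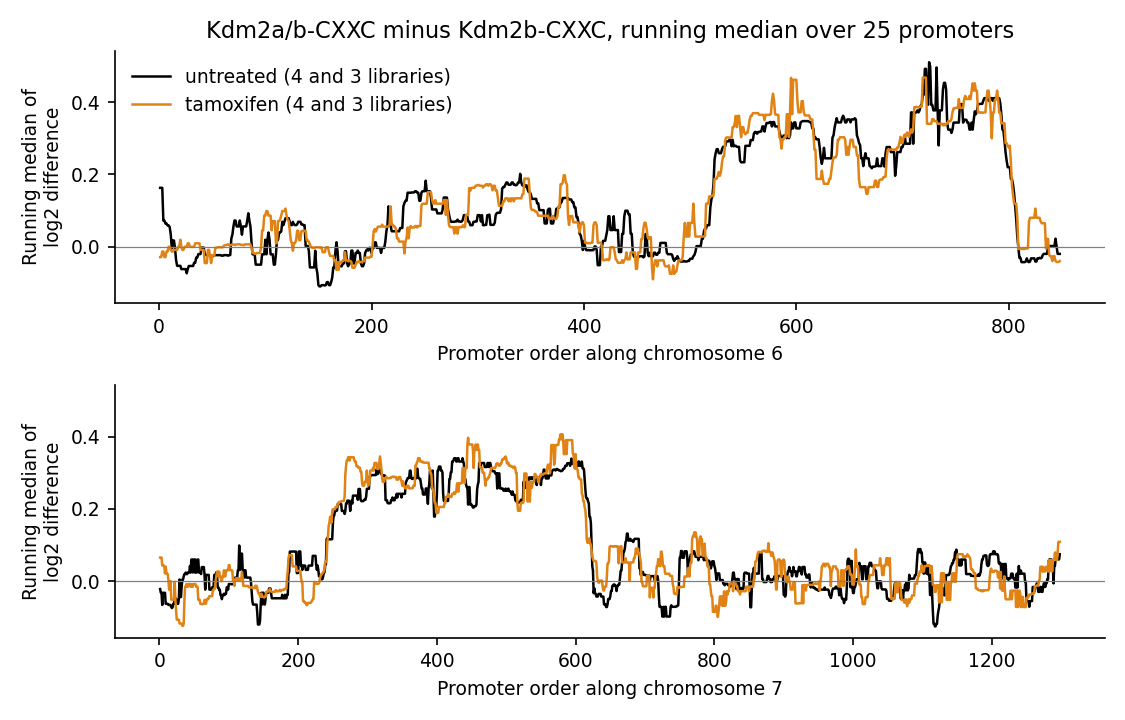
Running median over 25 neighbouring promoters of the log2 difference between Kdm2a/b-CXXC and Kdm2b-CXXC cells, by promoter order along chromosomes 6 and 7. Black is untreated and orange is tamoxifen-treated (4 and 3 libraries each), and both lines leave 0 and return to it at nearly the same promoters.

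Most called promoters of chromosomes 6 and 7 lay in these stretches, which were chosen from the same untreated differences. A run was a series of called promoters of 1 direction, each within 1 Mb of the next. On chromosome 6 a run held 8 of the 35 promoters tested from 126164761 to 129533391. On chromosome 7 a run held 7 of the 118 tested from 44246522 to 46846003. Over all promoters tested 0.229% were called higher. In the first run the first promoter was Ntf3, a neurotrophin gene, with 9.74, 12.6 and 13.3 RPM against 22.8, 22.3, 24.5 and 27.9 RPM (log2 difference 0.99 ± 0.25, adjusted p = 0.038). The last was Gabarapl1, an ATG8 family gene of autophagy, with means of 34.1 and 54.0 RPM (0.64 ± 0.17, adjusted p = 0.047). The largest was Clec2m, a C-type lectin gene, with 9.74, 9.33 and 6.23 RPM against 26.9, 15.9, 18.6 and 25.9 RPM (1.26 ± 0.28, adjusted p = 0.011). Between them lay Kcna5 and Kcna6, voltage-gated potassium channel genes, Parp11, Tead4 and Itfg2, with log2 differences from 0.50 to 0.86. In the second run Emp3, an epithelial membrane protein gene, was largest, with 10.9, 6.49 and 6.23 RPM against 15.5, 12.7, 20.4 and 26.5 RPM (1.14 ± 0.30, adjusted p = 0.047). Its last promoter was that of Ldha, which encodes a subunit of lactate dehydrogenase, with 51.8, 49.1 and 51.9 RPM against 64.5, 87.9, 65.8 and 80.2 RPM (0.53 ± 0.14, adjusted p = 0.048). With chromosome medians removed, 2 of the 25 promoters called on chromosomes 6 and 7 remained called, Fuz and Nucb1. Both lie in the chromosome 7 stretch, whose median difference of 0.27 was larger than the chromosome median of 0.09 that was removed. That fit therefore left much of the shift of the stretch in their values. Of the 8 promoters called in both fits 5 lie in a stretch, the others of these being Cbx7, Sun2 and Ube2f. The stretches of chromosomes 15 and 1 that hold them, described below, had median differences of 0.52 and -0.59. With chromosome medians removed Cbx7, Sun2 and Ube2f still had 0.76, 0.75 and -0.71, so these shifts were left in as well.

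Another, much shorter run lay on chromosome 15, where 8 neighbouring promoters from Sun2 to Cbx7 all had positive differences. Besides those described, Gm16576, Dnal4, a dynein light chain gene, Nptxr, a neuronal pentraxin receptor gene, Apobec3, a cytidine deaminase gene, and D730005E14Rik had log2 differences of 0.64, 0.45, 0.57, 0.34 and 0.73. Gm16576 and Nptxr were called with Sun2 and Cbx7. Gtpbp1, the promoter before them, had -0.01, and Pdgfb and Rpl3, which follow Cbx7, had 0.38 (adjusted p = 0.53) and 0.13. After tamoxifen the 8 promoters had differences from 0.35 to 0.69, and 6 of them were called. Dnal4, which was called after tamoxifen, held 104.8 RPM in Kdm2a-CXXC, 98.4 RPM in Kdm2a/b-JmjC, 96.9 RPM in Kdm2b-CXXC and 133 RPM in Kdm2a/b-CXXC cells.

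On chromosome 1 the stretch was lower in Kdm2a/b-CXXC cells. It held 14 promoters from Ackr3 at 90.20 Mb to Per2 at 91.46 Mb, with a median log2 difference of -0.59, a fold of 0.67. The Kdm2a/b-CXXC library medians lay between -0.32 and -0.02 and those of Kdm2b-CXXC between 0.27 and 0.35. The end promoters Ackr3, a chemokine receptor gene, and Per2, a circadian clock gene, differed by -0.02 and -0.04, and the 12 between them by -0.31 to -0.99. Ube2f and Erfe, which encodes the hormone erythroferrone, were called (Erfe with means of 41.2 and 22.9 RPM, log2 difference -0.86 ± 0.20, adjusted p = 0.022). After tamoxifen the median was -0.51, all 14 promoters were lower, and Cops8, a COP9 signalosome subunit gene, Scly, the selenocysteine lyase gene, and Hes6, a bHLH factor gene, were called (-0.67, -0.88 and -0.74). In this stretch both lines mostly stood below the other untreated lines, and so they did at the 4 promoters before it and the 4 after it. At Sh3bp4, before the stretch, the means were 164 RPM in Kdm2a-CXXC, 149 RPM in Kdm2a/b-JmjC, 112 RPM in Kdm2b-CXXC and 105 RPM in Kdm2a/b-CXXC cells. Scly held 94.6 RPM in Kdm2a-CXXC, 95.4 RPM in Kdm2a/b-JmjC, 52.2 RPM in Kdm2b-CXXC and 34.7 RPM in Kdm2a/b-CXXC cells. Cops8 held 117 RPM in each of the first pair, then 50.3 and 37.9 RPM. Over the 14 promoters, the median log2 difference from Kdm2a-CXXC was -0.82 in Kdm2b-CXXC and -1.38 in Kdm2a/b-CXXC cells.

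**Figure D4:**
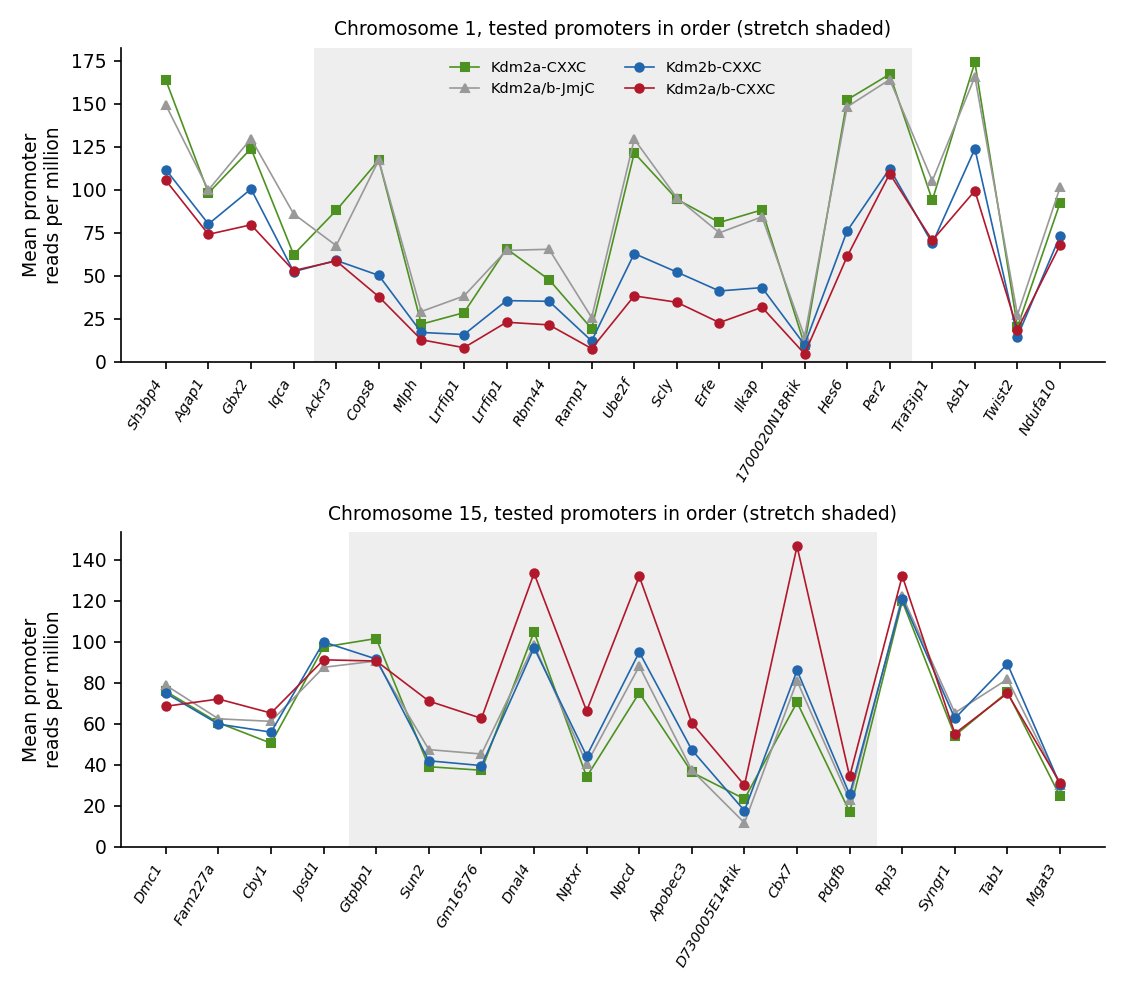
Mean promoter level in RPM at tested promoters in order along chromosome 1 and chromosome 15 in the 4 untreated lines, with the stretch shaded and 4 promoters on either side. Lines join the means of 3 libraries (4 for Kdm2a/b-CXXC). On chromosome 1 Kdm2b-CXXC and Kdm2a/b-CXXC lie below the other lines at nearly all promoters of the stretch and at all those shown beyond its ends. Within that stretch Kdm2a/b-CXXC is the lower of the 2. On chromosome 15 Kdm2a/b-CXXC alone stands above the rest from Sun2 to Cbx7.

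The stretches on chromosomes 6 and 7 were set beside the other untreated lines in the same way. These comparisons share the Kdm2a-CXXC or Kdm2a/b-JmjC libraries, so their values are only listed. On chromosome 6 the median log2 difference from Kdm2a-CXXC was 0.32 in Kdm2b-CXXC and 0.65 in Kdm2a/b-CXXC cells, and from Kdm2a/b-JmjC it was 0.29 and 0.59. On chromosome 7 the same values were 0.38 and 0.64, and 0.34 and 0.62. On chromosome 15 they were 0.19 and 0.77, and 0.10 and 0.58. All libraries compared here come from tables with separate calibration, and the scaling to promoter totals holds only as far as totals are comparable.

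On chromosome 17 a stretch of 41 promoters from Zfp760 at 21.71 Mb to Ccnf at 24.25 Mb was lower in Kdm2a/b-CXXC cells, with a median log2 difference of -0.27. Within it, 28 promoters from Zfp213 to Pdpk1 were all lower, with a median of -0.31, and 0 were called. After tamoxifen 27 of the 28 were lower, with a median of -0.25, and Tnfrsf12a, a receptor gene of the TNF receptor family, was called (-0.67, adjusted p = 0.0034). Hcfc1r1 had the smallest adjusted p there in untreated cells (-0.48 ± 0.10, adjusted p = 0.0086), just under the fold needed, and its interval overlaps that of Thoc6. On chromosome 8 the shift was spread more widely. The stretches from Sox1 to Tdrp and from Rab3a to Rasd2 had medians of -0.18 and -0.16 in untreated and of -0.16 and -0.08 in treated libraries. Over the whole chromosome 24.4% of tested promoters were higher in untreated and 34.3% in treated Kdm2a/b-CXXC cells. Elsewhere 14 promoters from Pcdhb10 to Pcdhga1 on chromosome 18, which are clustered protocadherins, adhesion genes of neurons, apart from Slc25a2 and Taf7, had a median of 0.35 in untreated cells and 0.22 after tamoxifen, where the libraries overlapped. From Gm11538 to Hoxb3 on chromosome 11, 9 promoters had 0.29 and 0.08, and overlapped after tamoxifen as well.

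Outside every stretch lay 93.9% of the tested promoters and 43.1% of the calls. There 22 of 15200 promoters were called, 10 higher and 12 lower in Kdm2a/b-CXXC cells, against 0.315% called among all tested promoters. Besides Ldb2, Grm3, Cdk13 and Yae1d1, these included Cfi, the complement factor I gene, with the largest difference of all called promoters at the lowest level (3.27 and 12.1 RPM on average, 1.64 ± 0.41, adjusted p = 0.0385), and the only one whose ranges overlapped. Among the lower ones were Usp4, a deubiquitinase gene (49.2 and 30.4 RPM, -0.68 ± 0.17, adjusted p = 0.043), Gtf2i, a general transcription factor gene (101 and 70.0 RPM, -0.53 ± 0.12, adjusted p = 0.021), and Lnx1, a ubiquitin ligase gene (40.3 and 23.9 RPM, -0.82, adjusted p = 0.0473). Also lower were the 4 called promoters of chromosome 8, whose median was 0.11 lower. They were Mtss2 (-0.62, adjusted p = 0.0036), Tbc1d9 (-0.60, adjusted p = 0.0043), 1700125H03Rik (-0.81, adjusted p = 0.021) and Ppp2cb (-0.52, adjusted p = 0.023; limma). With chromosome medians removed none of these on chromosome 8 was called. Cfi, Usp4, Gtf2i and Lnx1 were chosen after their values were seen. After tamoxifen the difference was 0.30 at Cfi, 0.27 at Usp4, -0.01 at Gtf2i and -0.58 at Lnx1, and none of them was called.

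The tamoxifen-treated libraries are separate libraries of the same lines, with 17053 promoters tested. They gave 75 called promoters (0.44%), 56 higher (0.328%) and 19 lower (0.111%), and 28 (0.164%) with chromosome medians removed, 20 higher (0.117%) and 8 lower (0.0469%). Without Kdm2b-CXXC tamoxifen replicate 1 the count with medians removed was 9. Library ranges were apart at 9.34% of promoters, 5.13% higher and 4.21% lower. Of the 51 promoters called in untreated cells 46 had the same sign after tamoxifen and 8 (15.7%) were called again, which are 10.7% of the treated calls. These were Cbx7, Sun2, Gm16576 and Nptxr on chromosome 15, Kcna5, Parp11 and Tcf7l1 on chromosome 6, and Yae1d1 on chromosome 13. Of the 8 promoters called in both fits, 2, Cbx7 and Sun2, were also called after tamoxifen with chromosome medians removed. Of the 22 calls outside stretches, 17 had the same sign and 1 was called again. The stretches were found in untreated libraries alone, and they held 48 of the 75 treated calls (64.0%) but 5.75% of the promoters tested. In 638 windows of 25 neighbouring promoters each library was given its median, and the difference was taken between the means of the lines. The untreated and treated differences of windows had a Pearson r of 0.77, and of 0.49 over the 552 windows off chromosomes 6 and 7. Over 16048 single promoters r was 0.25, and over the 15068 outside the stretches it was 0.19. Windows and promoters share libraries, depth and base composition, so these are descriptions. Untreated library medians were apart in 100 of the 638 windows (15.7%), higher in 8.31% and lower in 7.37%. In the 28 windows with a difference of 0.2 or more, 25 of them on chromosomes 6 and 7, all had the same sign after tamoxifen and in 26 the libraries were apart in both sets. In the 558 windows under 0.1, 358 had the same sign and 4 were apart in both sets in the same direction.

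**Figure D5:**
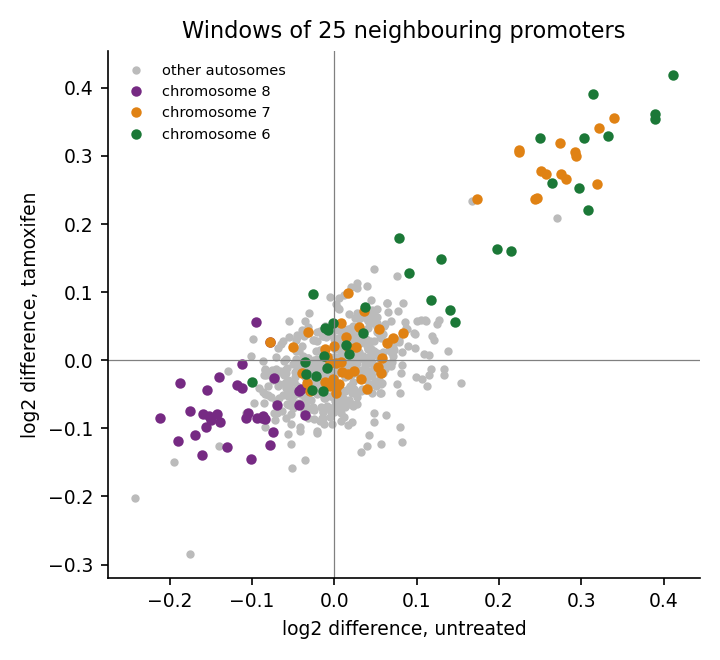
Log2 difference between the mean library medians of Kdm2a/b-CXXC and Kdm2b-CXXC cells in 638 windows of 25 neighbouring promoters, untreated (horizontal) against tamoxifen-treated libraries (vertical). Each point is a window, coloured for chromosomes 6, 7 and 8. Windows of chromosomes 6 and 7 with a difference of 0.2 or more in untreated cells had the same sign after tamoxifen, while most windows lie near 0 in both.

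The test of whether a line difference changed with tamoxifen, over the 14 libraries of both lines, called 0 of 17823 promoters (0%; limma, smallest adjusted p = 0.59), with 850 at an unadjusted p under 0.05. On the recovered reads edgeR also called 0 promoters, with 922 at an unadjusted p under 0.05. At the median promoter the standard error of this change was 0.22.

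The floxed genes themselves were not called. Kdm2a (chr19:4396878-4397277) held 69.4, 78.3 and 78.4 RPM in Kdm2b-CXXC and 57.1, 68.8, 59.3 and 71.6 RPM in Kdm2a/b-CXXC libraries. The ranges overlapped (log2 difference -0.23 ± 0.13, adjusted p = 0.58). The upstream Kdm2b promoter (chr5:122988900-122989299), whose interval overlaps that of A930024E05Rik, held 26.5, 22.3 and 25.7 RPM against 23.5, 17.2, 20.4 and 15.3 RPM, which overlapped, with a log2 difference of -0.38 ± 0.23 (adjusted p = 0.61). The downstream promoter (chr5:122900151-122900550) had means of 98.7 ± 8.21 and 83.1 ± 16.2 RPM and a log2 difference of -0.26 ± 0.12 (adjusted p = 0.45). Promoters lie away from the floxed exons, and the domain is still encoded in untreated cells, so these values do not check the alleles. Of the 11 tested promoters of genes for ZF-CxxC proteins 0 were called, and their median log2 difference was 0.02.

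Across 23 gene lists, 751 promoters were tested and 3 were called, all higher in Kdm2a/b-CXXC cells, against 0.229% called higher among all promoters. They were Cbx7 of PRC1, Tead4 of the trophoblast list, which encodes a TEAD factor of the trophectoderm, and Zfp60 of the zinc finger list. Tead4 held 45.6, 40.2 and 55.2 RPM against 62.5, 77.1, 74.2 and 71.0 RPM (log2 difference 0.60 ± 0.14, adjusted p = 0.025). Zfp60 held 83.8, 77.9 and 87.6 RPM against 130, 127, 111 and 115 RPM (0.53 ± 0.11, adjusted p = 0.0065). Each of the 3 lies in a stretch, and with chromosome medians removed Cbx7 alone remained called. The list count was 6 without Kdm2a/b-CXXC replicate 4, and 1 without Kdm2b-CXXC replicate 1 and without replicate 2.

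No promoter of the naive pluripotency list was called among 18 tested, and the list's median log2 difference was -0.02, with values from -0.50 (Tcl1) to 0.16 (Nanog). After tamoxifen the list's median was -0.13, and 1 of its 19 tested promoters was called, lower in Kdm2a/b-CXXC cells, against 0.111% called lower among all treated promoters. The formative and primed, primitive endoderm, mesoderm and neural lists had medians of 0.09, 0.04, 0.10 and 0.11 with 0 called of 19, 16, 13 and 16. In treated libraries their medians were -0.16, -0.03, -0.01 and 0.05, again with 0 called. PRC1 had a median of 0.12 over 20 promoters, and PRC2 one of 0.03 over 11, from -0.12 (Ezh2) to 0.32 (Aebp2, which lies in the chromosome 6 stretch). Imprinted genes (44 tested, 0 called) ranged from -0.80 at H19 to 0.81 at Ddc, with a median of 0.10. Germline genes (21 tested, 0 called, median 0.09) ranged from -0.92 at Stra8 to 0.85 at Sycp1. DNA methylation genes (14 tested, 0 called) had a median of 0.01 and the trophoblast list (11 tested) one of 0.02. The lists with the highest medians were also those at the lowest levels. The chemosensory receptors had a median of 0.30 over 24 promoters at 6.46 RPM, the clustered protocadherins 0.23 over 34 at 20.04 RPM and the Hox clusters 0.18 over 40 at 23.0 RPM, with 0 called in each. After tamoxifen these medians were -0.07, 0.10 and 0.07. Cytosolic ribosomal protein genes (65 tested, 0 called, 91.1 RPM) had 0.04. Interferon response, p53 pathway, immediate early and Wnt genes had medians of 0.03, -0.01, -0.04 and -0.01, the fibroblast list 0.15 over 8 and the zinc finger list 0.02 over 291, while the 2 promoters of two-cell stage genes found were not tested.

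A dependence on level ran through all tested promoters. In the 4048 promoters with the lowest levels (median 12.4 RPM, 17.5% CpG-rich) the median log2 difference was 0.09 and 60.3% were higher in Kdm2a/b-CXXC cells. In the 4048 with the highest levels (median 108 RPM, 93.9% CpG-rich) it was -0.03 and 40.5% were higher. After tamoxifen the corresponding medians were 0.03 and -0.02. CpG-rich promoters had a median of -0.02 and the others of 0.07, with called shares of 36 of 10951 and 15 of 5239. The Kdm2a/b-CXXC libraries were the shallower, and the part of depth in this pattern was not tested. With all libraries thinned to the shallowest total, 60 promoters were called in place of 51.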

How the data were processed

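Promoter accessibility was taken from deposited tables of calibrated ATAC-seq, 1 per line. The members, gene lists and tests were chosen with earlier results of these data known. The authors aligned reads with Bowtie2 to joined mm10 and dm6 genomes, discarded reads mapped more than once, PCR duplicates and regions of artificially high signal, and counted mouse reads over 400 bp promoter intervals. Each deposited library column is a signal, those reads divided by a DESeq2 size factor from the spike-in. Columns of the authors' own tamoxifen comparisons (means, log2 fold changes, errors, test statistics, p-values) were not used. Treatment labels of 2 input DNA libraries conflict, and input DNA is not analysed here.

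The steps between values gave back the reads, with 100% of values within 0.001 of a whole read. Counting error is limited by 1488370 to 2565444 promoter reads per library. limma 3.58.1 with a mean-variance trend was fitted to log2(RPM + 1) for promoters that passed filterByExpr of edgeR 4.0.16 (R 4.3.3), run on those reads, with Benjamini-Hochberg adjustment over all autosomal promoters tested. For the second fit the median of each autosome was subtracted from the Kdm2a/b-CXXC values. A GRCm38.p6 reference, the same build as mm10, gave symbols for 99.1% of identifiers, and 97.5% of intervals had an annotated start site within 200 bp of the centre. Fits were tested on simulated data.

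Named were every Kdm2a and Kdm2b promoter, the 10 with the smallest p with medians removed (since fewer than 10 were called), up to 4 called members of each gene list, and the first, last and largest of each run of 3 or more called promoters within 1 Mb of the next. Other names were chosen after their values were seen. The study calls its replicates biological, and no libraries agreed within sampling noise. Alternatives were other scalings, pseudocounts, filters and tools (edgeR, DESeq2 1.42.0), GC bins, a replicate block, a fit over all 26 libraries and leaving out each library. Removal of a running median and thinning to equal depth were added after seeing the data. One stretch of promoters is not reported here.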

Additional observations from a re-analysis of the deposited data

Results flagged for a closer look

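Of 40 sets of 4 Kdm2a/b-CXXC values examined (named promoters, chromosome medians and promoter totals in untreated cells), 1 held a library far from the others. At Nucb1, replicate 3 held 101.75 RPM while the other 3 lay between 117 and 120 RPM, a gap of 0.84 of the whole range. About 1 in 20 such sets would be marked by chance alone. Replicate 3 still lay above all 3 Kdm2b-CXXC libraries.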

How the results depend on the processing

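With spike-in calibrated values across tables, 6139 promoters were called between untreated lines, 0 with chromosome medians removed (293 at an unadjusted p under 0.05; limma) and 0 between treated lines with medians removed (221), and the medians of chromosomes 6, 7 and 8 became -0.413, -0.451 and -0.655. Cdk13, 2410002F23Rik, Zfp60 and Ldha then had differences of -0.048, -0.0092, -0.017 and -0.012. The 51 calls became 32 with no filter on low values and 30 in a fit over all 26 libraries, and between 8 and 51 with 1 library left out. The 8 calls with chromosome medians removed became 17 with a mean of at least 20 reads, 4 in the fit over all 26 libraries, 34 with edgeR, 16 with DESeq2, 14 after centring in GC bins, 5 with a running median removed, 15 after thinning, and between 1 and 10 with 1 library left out. The 28 treated calls ranged from 9 to 32 with 1 library left out. The 3 calls in gene lists became 7 with edgeR and ranged from 1 to 6. TMM scaling gave 0.108 and 0.0729 for chromosomes 6 and 7, and GC bins gave 0.102 and 0.0672. The interaction stayed at 0 calls with TMM scaling and edgeR. The causes were not tested. Of 900 values of single promoters under alternatives, 712 kept direction and side of the threshold, 168 lost the call, 16 gained it and 4 changed sign.

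Replicate numbers did not pair the lines, as deviations of same-numbered libraries had correlations of -0.016, 0.0071 and -0.015. The replicate block left out Kdm2a/b-CXXC replicate 4, untreated or treated, whose number the other line lacks. With the block 36 promoters were called, 1 with chromosome medians removed, and 30 in treated libraries with medians removed. Without that replicate and without a block the same counts were 51, 9 and 26. With the block and GC bins the counts were 60 and 28. The libraries share only a number, so these are no measure of a weaker effect.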
